A study of Mus musculus with 40 samples.

Results

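The genes described here are 10 genes of creatine and calcium cycling, the routes by which brown fat can produce heat without uncoupling protein 1: Ckb, Ckmt1, Ckmt2, Gatm, Gamt, Alpl, Atp2a2, Ryr1, Ryr2 and Sln. They were chosen by name out of 21827 protein-coding genes, and all 10 were found in the annotation. For each gene, peaks of H3K4me3, H3K27ac, H3K4me1 and H3K27me3 were collected from 32 deposited peak lists over the gene body and 10 kb on each side. Within these windows the lists held 374 peaks, of which 106 were H3K4me3, 176 H3K27ac, 87 H3K4me1 and 5 H3K27me3.

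The lists came from chromatin immunoprecipitation sequencing (ChIP-seq) of interscapular brown adipose tissue (iBAT) of 8 wild type C57BL/6N mice aged 20 weeks. Mice 1 and 2 were warm and on normal chow diet (NCD), mice 4 and 5 were on NCD and spent 24 h at 4 °C (cold), mice 7 and 8 were warm on high-fat diet (HFD), and mice 10 and 11 were cold on HFD. HFD was given for 12 weeks from 8 weeks of age, and the labels give no temperature for the warm mice. The paper's methods state that each sequencing experiment used brown fat from 2 mice, so a library may hold pooled tissue. Each mouse number in the labels was taken here as 1 animal, and every n rests on that. Whole tissue was used, so a mark can come from any cell type in it, and fewer marked cells cannot be told apart from a weaker mark in each cell.

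The depth of the lists differed widely between mice and touches every value below. H3K4me3 lists held 13517 to 24104 peaks and H3K27ac lists 3224 to 40604, with the shortest list of both marks in mouse 7. H3K4me1 lists held 12 to 27568 peaks and H3K27me3 lists 20 to 6428, so an absent peak of these marks is weak evidence of absence. The tissue label was checked against 12 brown adipocyte markers, of which 11 had H3K4me3 at their start sites in all 8 mice. Of 15 skeletal muscle markers, 6 had H3K4me3 in any mouse, and the 3 cardiac muscle markers had none.

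Creatine is made in a pair of steps by Gatm, which forms guanidinoacetate, and Gamt, which methylates it. Creatine kinases, cytosolic Ckb and mitochondrial Ckmt1 and Ckmt2, charge creatine with phosphate, and the phosphatase Alpl (TNAP) can release that phosphate again, so that ATP is spent as heat. In calcium cycling the pump SERCA2, encoded by Atp2a2, moves calcium into the endoplasmic reticulum, the ryanodine receptors Ryr1 and Ryr2 let it out, and sarcolipin (Sln) lets the pump use ATP without moving calcium in muscle. H3K4me3 marks active or poised start sites, H3K27ac marks active start sites and enhancers, H3K4me1 is common at enhancers, and H3K27me3 is deposited by Polycomb at repressed genes.

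The genes are described in 3 tiers by the number of mice with H3K4me3 at the start sites, which H3K27ac did not follow. Atp2a2, Gamt, Ckb and Ryr2 had H3K4me3 within 1000 bp of a start site in 7 or 8 mice. Gatm and Alpl had it in 5 mice, Ryr1 in 3 and Ckmt1 in 2, whereas Ckmt2 and Sln had no peak of any mark in any mouse over the whole window. Atp2a2 was the single member with H3K4me3 in all 8 mice (1 of 10), against 43.3% of all protein-coding genes. H3K4me3 was present in more than 4 mice at 6 of 10 members, close to 59.4% of all genes, and in no mouse at 2 of 10, where 35.1% of all genes had none.

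H3K27ac was rarer. No member had it in all 8 mice (3.74% of all genes did), and 2 of 10, Atp2a2 in 7 mice and Gamt in 6, had it in more than 4 mice (35% of all genes). It was absent from the start sites of 6 of 10 members in every mouse, where 50.5% of all genes had none. Ckb had H3K27ac in mice 10 and 11 and Ryr2 in mouse 5. Without mouse 7, 4 members had H3K4me3 in every remaining mouse (Ckb, Gamt, Atp2a2 and Ryr2) and 1, Atp2a2, had H3K27ac in every remaining mouse. Leaving out a mouse can only keep or raise such counts, at all genes as at the members. These counts are therefore not to be set against the shares of all genes in 8 mice. No start site of another gene lay within 1000 bp of a start site of a member.

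**Figure D1:**
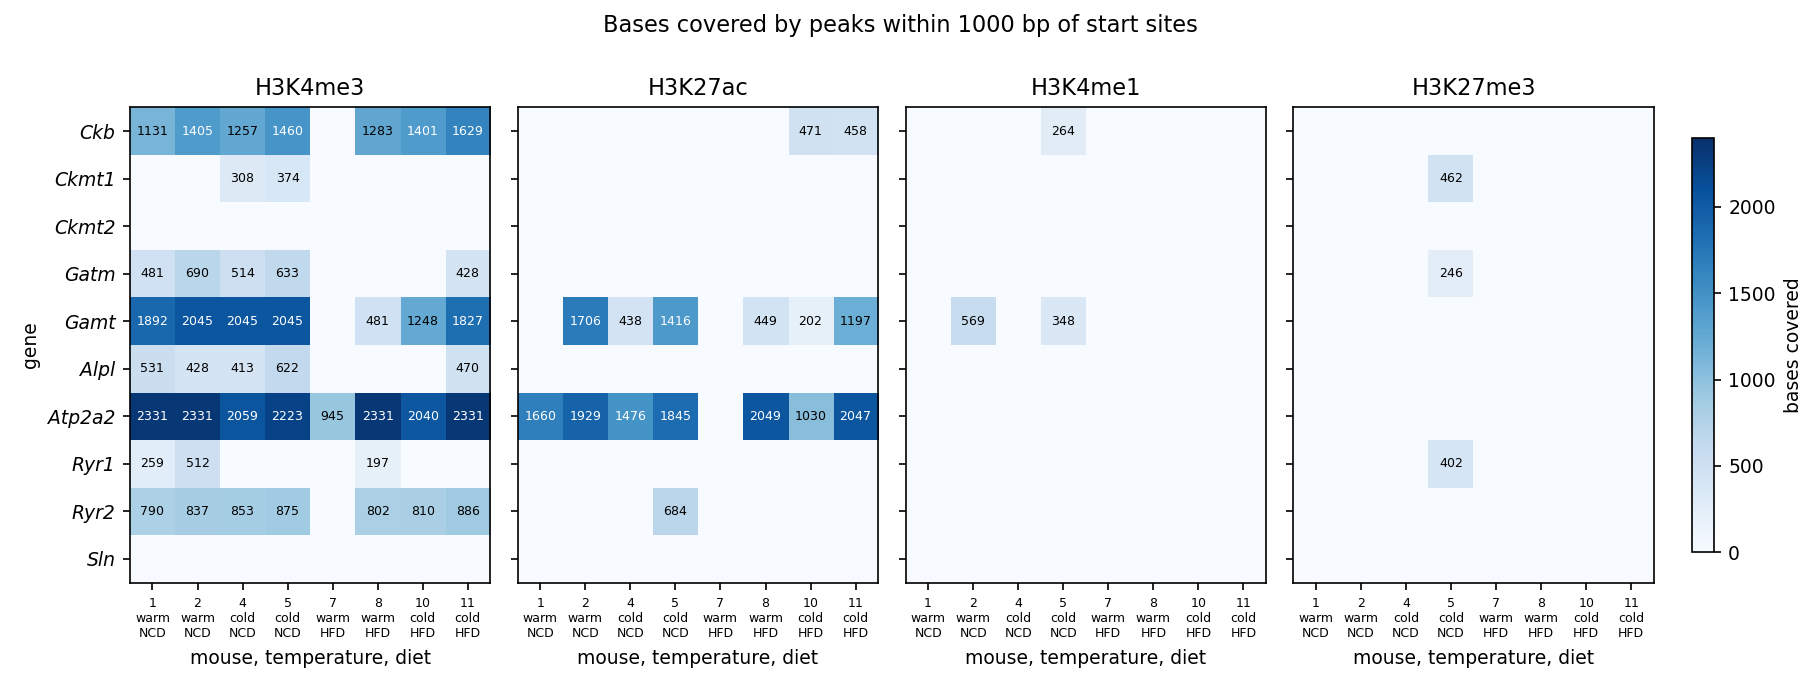
Bases covered by peaks within 1000 bp of the start sites of each gene (rows) in each mouse (columns), with 1 panel per mark; darker cells are more bases covered and cells without a number are 0. H3K4me3 of Atp2a2 covers 945 to 2331 bases in the 8 mice, and the rows of Ckmt2 and Sln are empty in all 4 panels.

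The sequences before the start sites are shown because the members differed in CpG content, which the choice of genes did not use. RefSeq promoter sequences (GRCm38.p6) were matched by symbol for 8 members at 10 start sites, but not for Atp2a2 and Sln. The 250 bases before the start site are printed 5′ to 3′ in the direction of transcription for 3 genes with H3K4me3 in 7 mice (Ckb, Gamt, Ryr2), for Gatm with 5 mice, for Ryr1 with 3 and for Ckmt2 with none, and capitals mark CpG dinucleotides.
Ckb, chr12:111672339-111672588, minus strand: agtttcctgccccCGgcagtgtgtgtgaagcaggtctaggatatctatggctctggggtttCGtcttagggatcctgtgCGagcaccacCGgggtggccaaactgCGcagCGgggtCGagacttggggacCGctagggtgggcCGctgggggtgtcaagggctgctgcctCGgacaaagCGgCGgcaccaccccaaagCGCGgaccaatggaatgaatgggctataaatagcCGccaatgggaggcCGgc
Gamt, chr10:80261013-80261262, minus strand: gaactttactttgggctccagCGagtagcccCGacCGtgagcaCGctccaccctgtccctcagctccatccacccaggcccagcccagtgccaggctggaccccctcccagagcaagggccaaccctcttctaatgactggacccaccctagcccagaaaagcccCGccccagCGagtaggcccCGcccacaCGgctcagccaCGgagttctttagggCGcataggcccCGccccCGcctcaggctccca
Ryr2, chr13:12106946-12107195, minus strand: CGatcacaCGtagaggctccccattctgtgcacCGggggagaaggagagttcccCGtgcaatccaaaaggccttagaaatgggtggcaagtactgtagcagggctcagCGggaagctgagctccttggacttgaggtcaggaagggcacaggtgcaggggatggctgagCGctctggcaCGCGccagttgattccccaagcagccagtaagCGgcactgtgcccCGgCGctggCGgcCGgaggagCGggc
Gatm, chr2:122611278-122611527, minus strand: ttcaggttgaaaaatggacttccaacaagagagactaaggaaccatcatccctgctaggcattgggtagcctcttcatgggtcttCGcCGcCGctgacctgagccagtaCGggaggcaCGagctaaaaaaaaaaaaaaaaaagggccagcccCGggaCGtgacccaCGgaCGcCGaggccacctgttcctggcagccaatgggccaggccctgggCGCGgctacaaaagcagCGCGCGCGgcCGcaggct
Ryr1, chr7:29125152-29125401, minus strand: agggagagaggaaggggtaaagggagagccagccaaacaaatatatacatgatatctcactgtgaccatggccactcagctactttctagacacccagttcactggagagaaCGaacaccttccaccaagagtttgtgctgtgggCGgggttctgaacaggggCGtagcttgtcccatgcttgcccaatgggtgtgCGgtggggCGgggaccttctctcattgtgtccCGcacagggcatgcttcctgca
Ckmt2, chr13:91876886-91877135, minus strand: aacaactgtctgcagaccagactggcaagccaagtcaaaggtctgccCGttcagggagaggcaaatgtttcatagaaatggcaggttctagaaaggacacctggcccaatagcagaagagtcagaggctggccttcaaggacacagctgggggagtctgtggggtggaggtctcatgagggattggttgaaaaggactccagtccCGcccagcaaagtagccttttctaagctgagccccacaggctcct

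Ckb had 16 CpG in these 250 bases, Gamt 12, Ryr2 14 and Gatm 17. Ryr1 had 6 CpG and Ckmt2 had 2. The start site of Alpl that carried H3K4me3 had 20 CpG, while its second RefSeq start site, 29909 bp into the gene, had 4 and no H3K4me3 or H3K27ac peak within 1000 bp in any mouse. The start sites of Ckmt1 had 4 and 9 CpG. The promoters matched by symbol to a protein-coding gene were grouped by H3K4me3 at any start site of the gene, not at each promoter. Their median was 16 CpG where the gene had H3K4me3 in all mice (9582 promoters). It was 12 where the gene had it in 1 to 7 mice (4456) and 2 where it had it in no mouse (6105). Over all 32851 promoters the median was 6. Of the 10 start sites, those with H3K4me3 in 5 or more mice had 12 or more CpG, and the others had 9 or fewer.

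**Figure D2:**
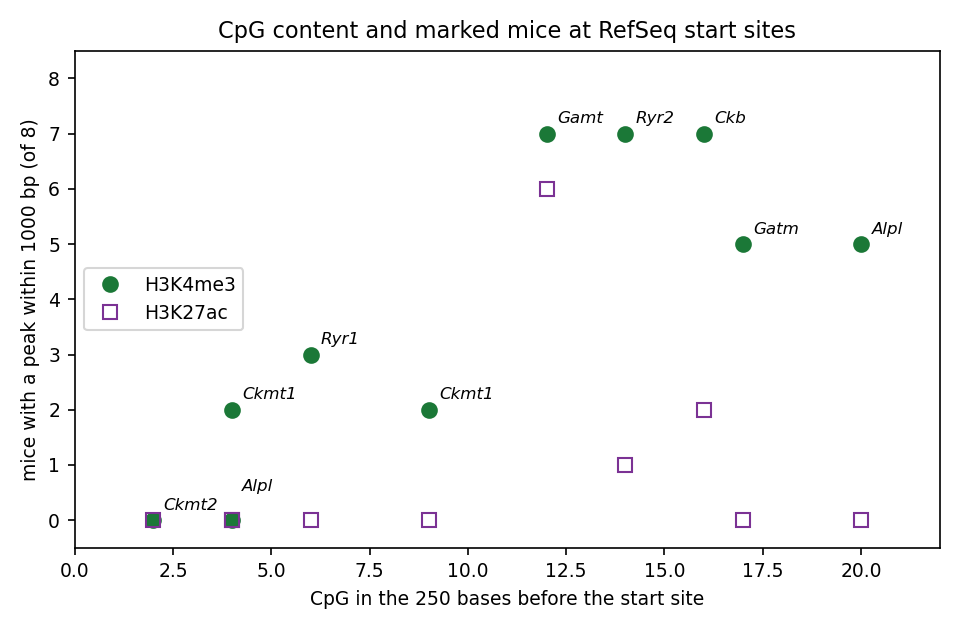
CpG dinucleotides in the 250 bases before each RefSeq start site (horizontal axis) against the number of mice, of 8, with a peak within 1000 bp of it (vertical axis), for H3K4me3 (filled circles, with gene names) and H3K27ac (open squares). Start sites with 12 to 20 CpG had H3K4me3 in 5 to 7 mice, and those with 2 to 9 had it in 0 to 3.

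Short motifs were looked for on both strands of the same 250 bases. The nuclear receptor half-site AGGTCA was found at 4 of 10 start sites, those of Ryr2, Gatm, the first of Ckmt1 and the second of Alpl, and at 14% of all 32851 promoters. TATAAA was found at 3 of 10, those of Ckb, the first of Ckmt1 and the second of Alpl, and at 12.4% of all promoters. The half-site TGACG was found at 1 of 10, the second of Alpl, and at 17.8% of all promoters. A match is a description of the letters and not of binding.

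Among the creatine synthesis genes, Gamt carried wide active marks and Gatm a narrow H3K4me3 peak alone. Gamt (chr10:80258151-80261012, minus strand) had 1892, 2045, 2045 and 2045 bases of H3K4me3 within 1000 bp of its start sites in mice 1, 2, 4 and 5, and 0, 481, 1248 and 1827 in mice 7, 8, 10 and 11. Its H3K27ac covered 0, 1706, 438 and 1416 bases in mice 1, 2, 4 and 5 and 0, 449, 202 and 1197 in mice 7, 8, 10 and 11. H3K4me3 thus filled the whole 2045 bases in 3 of 4 NCD mice, and H3K27ac lay both upstream of the start site, in 6 mice, and over exon 1, in 3. H3K4me1 was found at the start of Gamt in mice 2 and 5. In the flanks, the start sites of Ndufs7 and Dazap1 had H3K4me3 in all 8 mice, and most H3K4me3 bases counted in the Gamt window belonged to them.

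Gatm (chr2:122594467-122611303, minus strand) had 481, 690, 514 and 633 bases of H3K4me3 in the NCD mice 1, 2, 4 and 5. In the HFD mice 7, 8, 10 and 11 it had 0, 0, 0 and 428. The summits lay 84 to 182 bp inside the gene, and no other gene started in the window. The best peak stood at percentile 12.7 to 35.3 of fold enrichment within its own list, so it was a low peak in each of the 5 mice. Gatm had no H3K27ac or H3K4me1 anywhere in its window and 246 bases of H3K27me3 in mouse 5.

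Of the creatine kinases, the cytosolic Ckb had H3K4me3 in 7 mice, the mitochondrial Ckmt1 in 2 and Ckmt2 in none. Ckb (chr12:111669361-111672338, minus strand) had 1131, 1405, 1257 and 1460 bases of H3K4me3 at its start in mice 1, 2, 4 and 5, and 0, 1283, 1401 and 1629 in mice 7, 8, 10 and 11. All mice but mouse 7 lay between 1131 and 1629 bases, whatever the temperature or diet. H3K27ac at its start was listed in the cold HFD mice alone, with 471 bases in mouse 10 and 458 in mouse 11.

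A further site lay beyond the 3′ end of Ckb, at chr12:111668544-111668915, 3621 bp from its start site. It had H3K4me3 in the NCD mice 1, 2, 4 and 5, with 267, 372, 226 and 331 bases, and in none of the HFD mice. These were low peaks, at percentile 26.8 to 34.3 of fold enrichment within their own lists. H3K27ac covered the same place in mice 2, 4, 5, 8 and 11. This site was singled out after its values were seen, so no test is given. How many of all H3K4me3 regions separate by diet in this way was not counted. The peaks upstream of Ckb in 8 mice for H3K4me3 and 7 for H3K27ac had their highest summits 130 and 293 bp from the start of Trmt61a.

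Ckmt1 (chr2:121357714-121363737, plus strand) had H3K4me3 at its starts in the cold NCD mice alone, with 308 bases in mouse 4 and 374 in mouse 5. Mouse 5 also had 462 bases of H3K27me3 there. No H3K27ac lay at a start site of Ckmt1, and the single H3K27ac region of its window, found in 7 mice, lay 409 bp from the start of Ppip5k1. Ckmt2 (chr13:91853387-91876885, minus strand), the sarcomeric form known from muscle, had no peak. Alpl (chr4:137741733-137796384, minus strand) had 531, 428, 413 and 622 bases of H3K4me3 at its start in mice 1, 2, 4 and 5 and 0, 0, 0 and 470 in mice 7, 8, 10 and 11, and no H3K27ac there. Its H3K4me3 peak stood at percentile 0.0582 of fold enrichment in the mouse 4 list and at 20.7 to 39.3 in mice 1, 2, 5 and 11.

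Alpl carried its H3K27ac inside the gene instead. A region in intron 8, chr4:137746512-137748250, had H3K27ac in 7 mice, with 321, 1659, 707 and 223 bases in mice 1, 2, 4 and 5 and 0, 558, 325 and 1553 in mice 7, 8, 10 and 11. H3K4me1 overlapped it in 5 mice. Of 11 H3K27ac regions in the Alpl window, 8 were in the gene away from its start and 3 were upstream, and 5 of the 11 were found in 1 mouse each. H3K4me1 formed 19 regions, 18 of them in the gene, which was more than at any other member. Upstream of Alpl, chr4:137800267-137801202 had H3K27ac in mice 2, 4, 5 and 11, with 282, 510, 240 and 936 bases.

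Among the calcium genes, Atp2a2 (chr5:122453513-122502225, minus strand) was the most widely marked. H3K4me3 covered 2331, 2331, 2059 and 2223 bases around its starts in mice 1, 2, 4 and 5 and 945, 2331, 2040 and 2331 in mice 7, 8, 10 and 11. H3K27ac covered 1660, 1929, 1476 and 1845 bases in mice 1, 2, 4 and 5 and 0, 2049, 1030 and 2047 in mice 7, 8, 10 and 11. The full window of 2331 bases was thus covered by H3K4me3 in 4 mice, and H3K27ac was missing in mouse 7 alone. The best H3K27ac peak was low in mice 10 and 4, at percentile 0.303 and 1.16 of fold enrichment in their lists. It stood at 77.4 to 96.7 in mice 1, 2, 5, 8 and 11.

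Atp2a2 also had H3K27ac in intron 5 in a pair of regions. The first, chr5:122474068-122478716, was found in 6 mice with 220, 3081, 2535 and 2244 bases in mice 1, 2, 4 and 5, 4462 in mouse 8 and 3773 in mouse 11, and H3K4me1 overlapped it in 4 mice. The other, chr5:122480483-122483347, was found in 6 mice, with 705, 1716 and 237 bases in mice 2, 4 and 5 and 2522, 368 and 2086 in mice 8, 10 and 11. Upstream of the gene, chr5:122509038-122510993 had H3K27ac in all 4 cold mice, with 428, 1070, 377 and 1956 bases in mice 4, 5, 10 and 11, and in 1 warm mouse, mouse 8, with 1328. Over the gene and its flanks H3K27ac covered 2010, 8032, 6218 and 6680 bases in mice 1, 2, 4 and 5 and 0, 16025, 1930 and 13990 in mice 7, 8, 10 and 11. Mice 7, 10 and 1, which had the shortest H3K27ac lists (3224, 14511 and 16889 peaks), had the fewest bases, and the part of list length in these values was not tested.

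Ryr1 (chr7:29003344-29125179, minus strand), the ryanodine receptor known from skeletal muscle, had 259, 512 and 197 bases of H3K4me3 at its start in the warm mice 1, 2 and 8 and none in the 4 cold mice. These were low peaks, at percentile 0.4 to 13.4 of their own lists. Mouse 5 had 402 bases of H3K27me3 at the start of Ryr1 and 1060 over its window, and no mouse had H3K27ac. Beyond the 3′ end of Ryr1, chr7:29000845-29001544 had H3K4me3 in mice 2, 4, 5 and 11, with 301, 311, 700 and 357 bases. Of the 15 skeletal muscle markers, the number with H3K4me3 was 5, 6, 1 and 2 in the warm mice 1, 2, 7 and 8 and 4, 4, 2 and 2 in the cold mice 4, 5, 10 and 11. The part of muscle chromatin in the Ryr1 peaks was not tested. Sln (chr9:53850164-53854560, plus strand) had no peak.

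**Figure D3:**
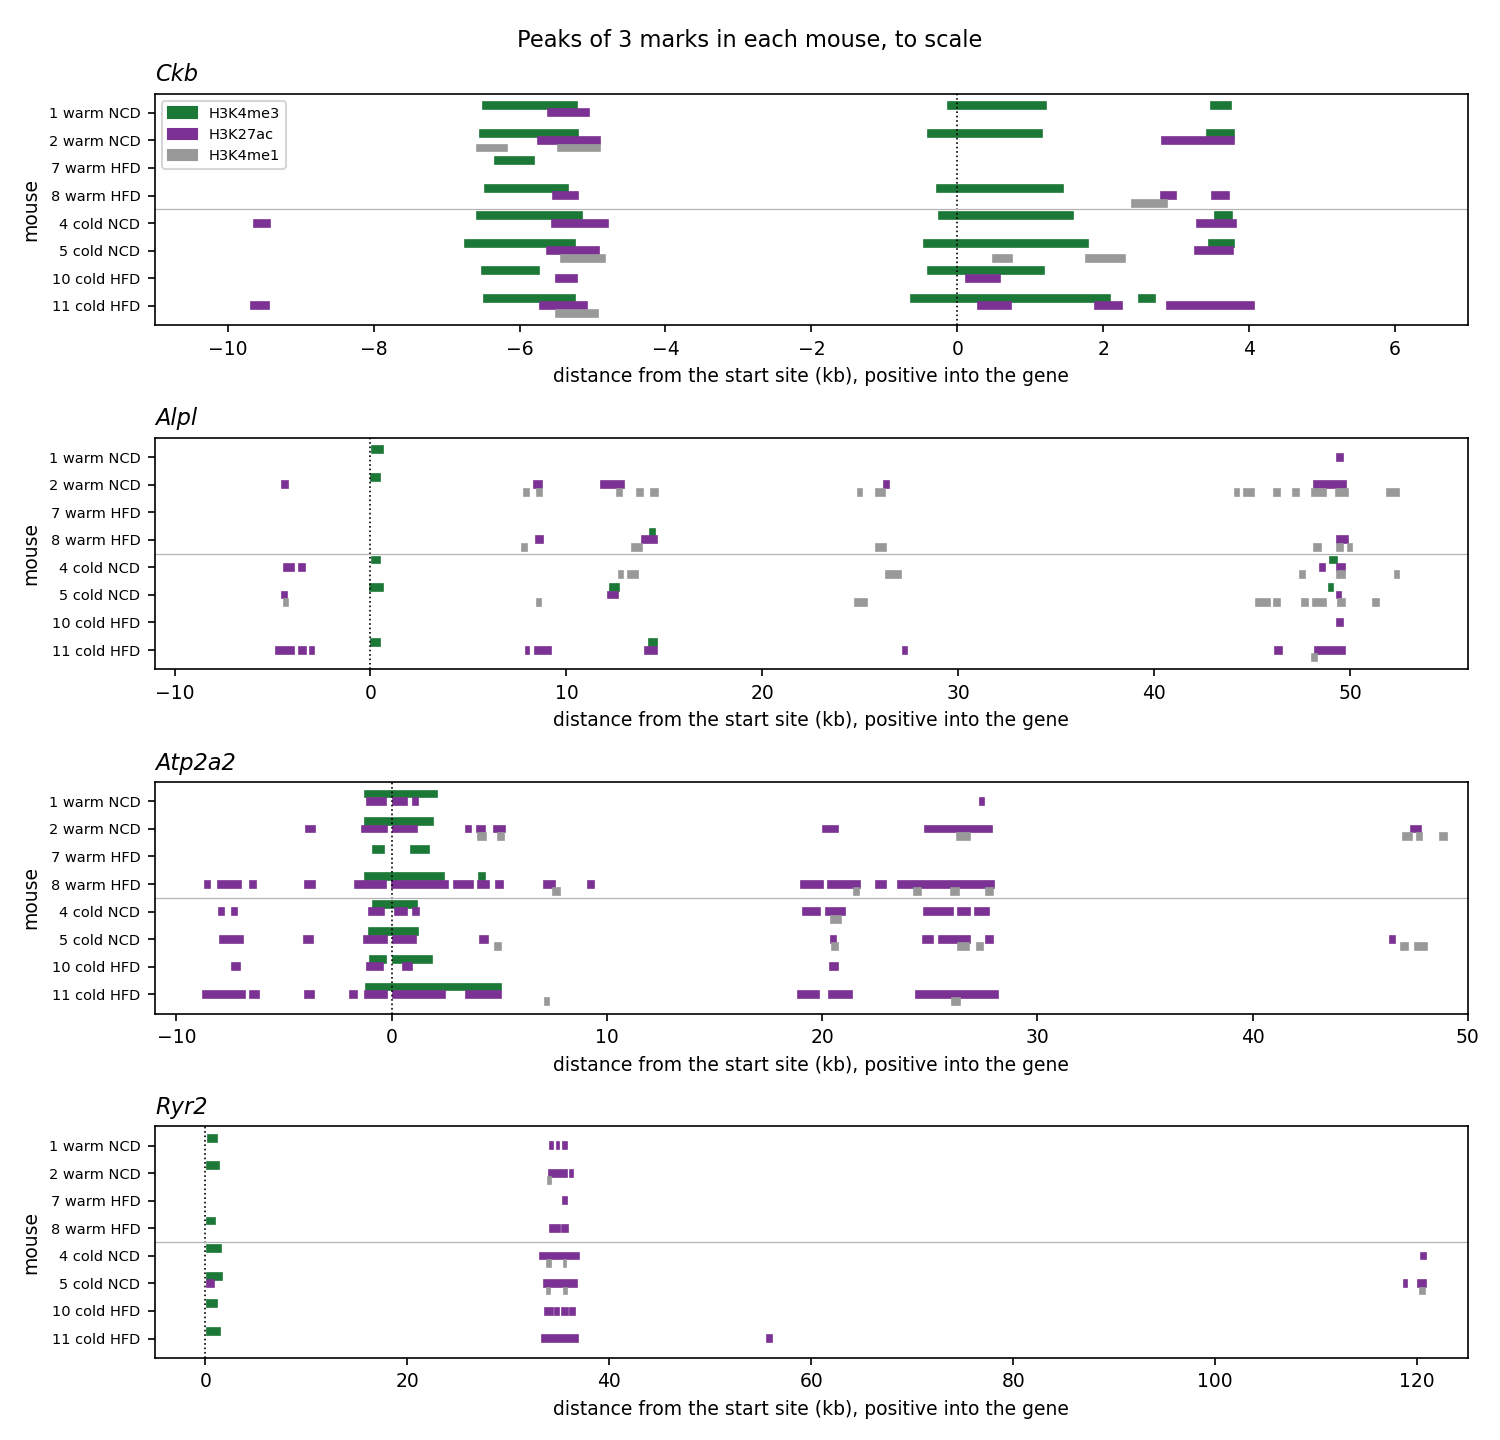
Peaks of H3K4me3, H3K27ac and H3K4me1 in each mouse against distance from the start site in kb (positive into the gene) for Ckb, Alpl, Atp2a2 and the first part of Ryr2; warm mice are above the grey line and cold mice below it, and bars are drawn to scale. H3K27ac about 34 kb into Ryr2 is present in all 8 mice and covers 2174 to 3819 bases in the cold mice and 354 to 2111 in the warm mice.

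Ryr2 (chr13:11553102-12106945, minus strand), the ryanodine receptor known from heart, had 790, 837, 853 and 875 bases of H3K4me3 at its start in mice 1, 2, 4 and 5 and 0, 802, 810 and 886 in mice 7, 8, 10 and 11. The summits lay 306 to 757 bp inside the gene, all peaks starting downstream of the start site. H3K27ac at the start was found in mouse 5 alone, with 684 bases. The main H3K27ac of the gene was a region in intron 1, chr13:12069999-12073817, 34147 bp from the start site and 20743 bp from the nearest annotated start of any gene, Gm47493.

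This intronic region was the only H3K27ac region away from start sites that was present in all 8 mice in any member. Its covered bases were 1046, 2111, 354 and 1559 in the warm mice 1, 2, 7 and 8, a mean of 1268 ± 748 (SD, n = 4). They were 3819, 3242, 2174 and 3533 in the cold mice 4, 5, 10 and 11, a mean of 3192 ± 718 (SD, n = 4). Every cold mouse lay above every warm mouse. In the warm mice these were all the H3K27ac bases of the Ryr2 window, so this is not a result apart from the window comparison below. There the groups overlapped when bases were taken as a share of each list. The percentile of the region's best peak by fold enrichment within its own list was 53.4, 58.9, 55 and 87.2 in the warm mice. It was 99.4, 94.5, 94.2 and 88.2 in the cold mice. How many of all H3K27ac regions separate by temperature, in bases or in percentile, was not counted. H3K4me1 overlapped the region in mice 2, 4 and 5.

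The 201 bases around the highest summit of the region, in mouse 4, are printed because this region was the H3K27ac of Ryr2 found in every mouse, with the nuclear receptor half-site AGGTCA, read on the opposite strand, in capitals.
Ryr2 intron 1, chr13:12072698-12072898, minus strand: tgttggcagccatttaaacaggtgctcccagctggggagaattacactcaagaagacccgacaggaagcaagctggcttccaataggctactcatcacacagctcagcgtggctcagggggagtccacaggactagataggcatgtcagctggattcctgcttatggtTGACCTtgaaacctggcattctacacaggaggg

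This stretch held 2 CpG and 1 AGGTCA. The half-site was present in 14.6% of the 30531 windows of the same length around summits of the same H3K27ac list.

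By temperature, no member passed an adjusted test. Presence at start sites was compared by a two-sided Fisher's exact test of 4 cold against 4 warm mice, which can give no p below 0.0286. No member had a peak in all 4 mice of a temperature and in none of the other, against 0.0424% of genes for H3K4me3 and 0.12% for H3K27ac. The nearest was Ryr1 H3K4me3, present in 3 warm and 0 cold mice (Fisher's exact p = 0.143, adjusted p = 1). Without mouse 7 it was in all warm mice and in no cold mouse, as mouse 7 was the only warm mouse without it. H3K27ac at Gamt was present in 4 cold and 2 warm mice and at Ckb in 2 cold and 0 warm mice (Fisher's exact p = 0.429 for each).

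Covered length over the gene and 10 kb each side was compared by a two-sided exact permutation test. Ryr2 H3K27ac covered 1046, 2111, 354 and 1559 bases in the warm mice and 4607, 5465, 2174 and 5311 in the cold mice. The cold mean was 4389 ± 1523 and the warm mean 1268 ± 748 (SD, n = 4 each), a difference of 3122 bases and a ratio of 3.46 (exact permutation p = 0.0286, adjusted p = 1). It was the 1 pair of member and mark whose temperature groups did not overlap. Of all genes with H3K27ac, 1.21% had every cold mouse above every warm mouse, and 0 of 13778 had every cold mouse below. The H3K27ac lists of the warm mice 1, 2, 7 and 8 held 16889, 28433, 3224 and 33798 peaks. Those of the cold mice 4, 5, 10 and 11 held 30544, 30495, 14511 and 40604. The part of list length in the Ryr2 difference was not tested. The Ryr2 H3K27ac groups overlapped when covered bases were taken as a share of each list (exact permutation p = 0.114), and also with peaks of −log10 q of 5 or more alone (exact permutation p = 0.0571). Ryr2 H3K4me3 covered 1314 ± 249 bases in the cold and 741 ± 520 in the warm mice (SD, n = 4 each), and the groups overlapped (exact permutation p = 0.0857, adjusted p = 1). The other members' groups overlapped for every mark.

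Within diets the Ryr2 difference had the same direction. On NCD the means were 5036 bases in the cold and 1578 in the warm mice, and on HFD 3742 and 956. The interaction, the cold difference on NCD minus that on HFD, was 672 bases (exact permutation p = 0.914). In the cold mice, further intronic regions of Ryr2 added to the sum. A region in intron 17, chr13:11804679-11805199, was present in mice 4, 5 and 11 and in no warm mouse, and a region in intron 1, chr13:11986103-11986889, in mice 4 and 5.

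**Figure D4:**
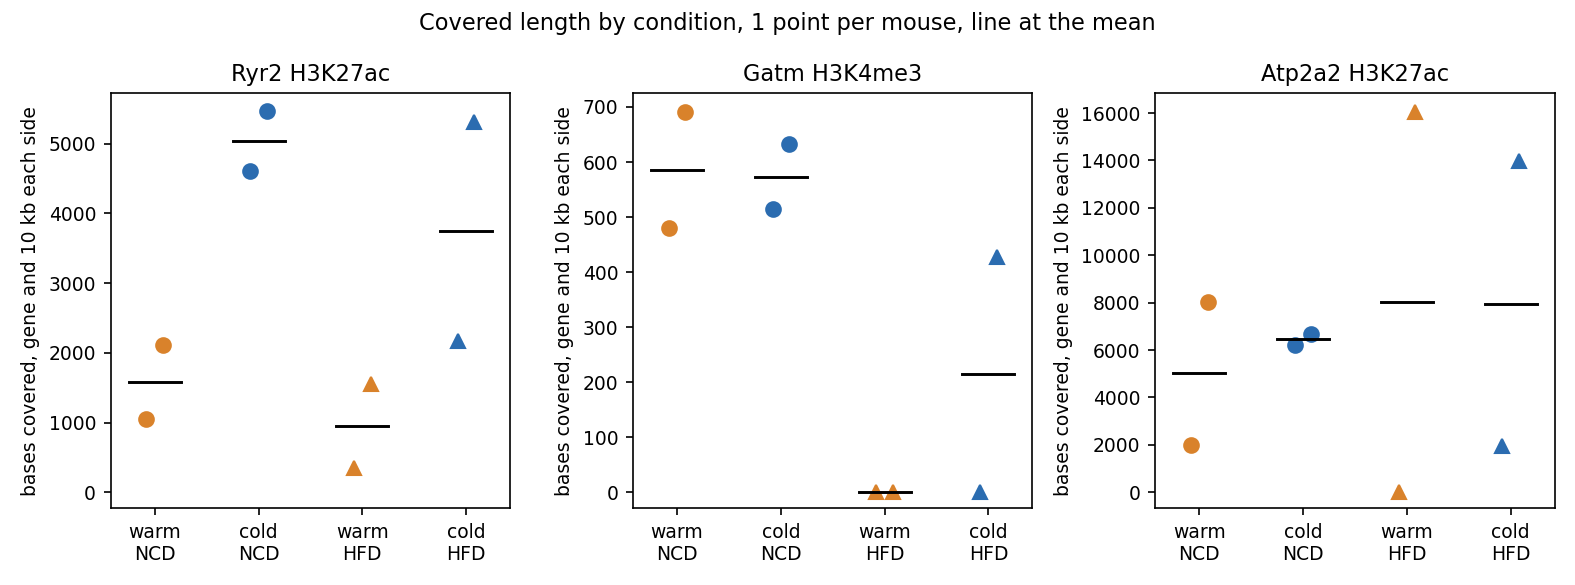
Bases covered over the gene and 10 kb each side by condition for Ryr2 H3K27ac, Gatm H3K4me3 and Atp2a2 H3K27ac, with 1 point per mouse (circles NCD, triangles HFD) and a line at the mean of 2 mice. The 4 cold mice lie above the 4 warm mice for Ryr2, the 4 NCD mice lie above the 4 HFD mice for Gatm, and the groups of Atp2a2 overlap.

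By diet, no member passed an adjusted test either. No member had a start site peak in all 4 mice of a diet and in none of the other, against 0.184% of genes for H3K4me3 and 0.102% for H3K27ac. Gatm and Alpl H3K4me3 were each present in 4 NCD mice and in 1 HFD mouse, mouse 11 (Fisher's exact p = 0.143 for each, adjusted p = 1). Without mouse 11 both were in all NCD mice and in no HFD mouse. This follows from leaving out the only HFD mouse with the peaks. The H3K4me3 lists of mice 1, 2, 4, 5 and 11 held 20304, 21024, 22321, 22692 and 24104 peaks. Those of mice 7, 8 and 10, which lacked both peaks, held 13517, 19079 and 17195. The part of list length in the presence of Gatm and Alpl was not tested. The summed H3K4me3 of the 15 skeletal muscle markers was 3098 to 4305 bases in the NCD mice and 250 to 2222 in the HFD mice, and that of the 12 brown adipocyte markers 16801 to 19866 and 14288 to 22084. Of the muscle markers, Acta1 and Pygm had H3K4me3 in the 4 NCD mice and in no HFD mouse, Ttn in mice 1 and 2, Tnnc2 in mouse 2, Actn3 in 7 mice and Mylpf in all 8. The other 9, among them Myh1, Myh2, Myh4 and Myod1, had none in any mouse, and the part of muscle chromatin in these differences was not tested.

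Gatm H3K4me3 was the 1 pair of member and mark whose diet groups did not overlap in covered length. The NCD mean was 580 ± 98.4 bases and the HFD mean 107 ± 214 (SD, n = 4 each), and the difference was −472 bases (exact permutation p = 0.0286, adjusted p = 0.673). All HFD mice were below all NCD mice at 3.22% of genes with H3K4me3, and above them at 0.056%. With lists cut to equal length Gatm had no H3K4me3 peak left. Alpl H3K4me3 over the window covered 748 ± 374 bases on NCD and 278 ± 408 on HFD (SD, n = 4 each), with overlap between the groups (exact permutation p = 0.143, adjusted p = 0.673). Atp2a2 H3K4me3 covered 2702 ± 635 bases on NCD and 3534 ± 2123 on HFD, and the groups overlapped (exact permutation p = 0.543, adjusted p = 0.889).

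No interaction of temperature and diet passed the test for any member. The smallest p was that of Ckmt1 H3K4me3, whose window held a mean of 1691 bases in cold NCD, 2162 in warm NCD, 1992 in cold HFD and 1508 in warm HFD mice (exact permutation p = 0.0571, adjusted p = 0.469). Those bases came from the start of Ppip5k1 except for the peaks at Ckmt1 in mice 4 and 5. Over all genes, the exact tests gave 0 adjusted calls for temperature, diet and interaction in every mark. As no p can be below 0.0286, an adjusted call would need most of the genes tested to reach it. The lack of adjusted calls therefore does not show that the groups were alike. At an unadjusted p under 0.05, covered length gave 99 of 16084 genes for H3K4me3 and 167 of 13778 for H3K27ac by temperature, and 527 and 79 by diet. Presence gave 6 of 14157 and 13 of 10814 genes by temperature and 26 and 11 by diet. The interaction of covered length gave 458 and 2.

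H3K4me3 and H3K27ac were compared at the start sites on bases covered within 1000 bp, with 8 libraries of each mark and an exact two-sided permutation test. H3K4me3 was longer at 74.8% of genes tested (adjusted p under 0.05). Of the 8 members tested, 4 passed. Ckb had a mean of 1196 ± 506 bases of H3K4me3 and 116 ± 215 of H3K27ac (SD, n = 8, exact permutation, adjusted p = 0.00304). Ryr2 had 732 ± 298 and 85.5 ± 242 (SD, n = 8, exact permutation, adjusted p = 0.00304). Gatm, with 343 ± 296 bases of H3K4me3, and Alpl, with 308 ± 263, had no H3K27ac (exact permutation, adjusted p = 0.0349 for each). With H3K27ac at 0 in every mouse, this p depends only on how many mice had H3K4me3, and not on its length.

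The marks came from the same mice, and the replicate block, with signs flipped within mice, changed 4 of these calls. Gamt, with 1448 ± 800 bases of H3K4me3 and 676 ± 668 of H3K27ac, had an adjusted p of 0.0703 without the block and 0.0224 with it (exact permutation tests). Atp2a2, with 2074 ± 472 and 1504 ± 697, had 0.091 without it and 0.0153 with it (exact permutation tests). Gatm and Alpl did not pass with the block (exact sign flips, adjusted p = 0.0755 for each), and 3 of 8 mice had neither mark at them. With H3K4me3 in 5 mice and H3K27ac in none, sign flips can give no p below 0.0625. The block could therefore not call these genes, and its outcome says nothing about them. Leaving out mouse 1, 2, 4, 5 or 11, the mice with these peaks, also ended the calls of Gatm and Alpl. This had to follow from the loss of a marked mouse. Leaving out mouse 7 gave 6 members.

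**Figure D5:**
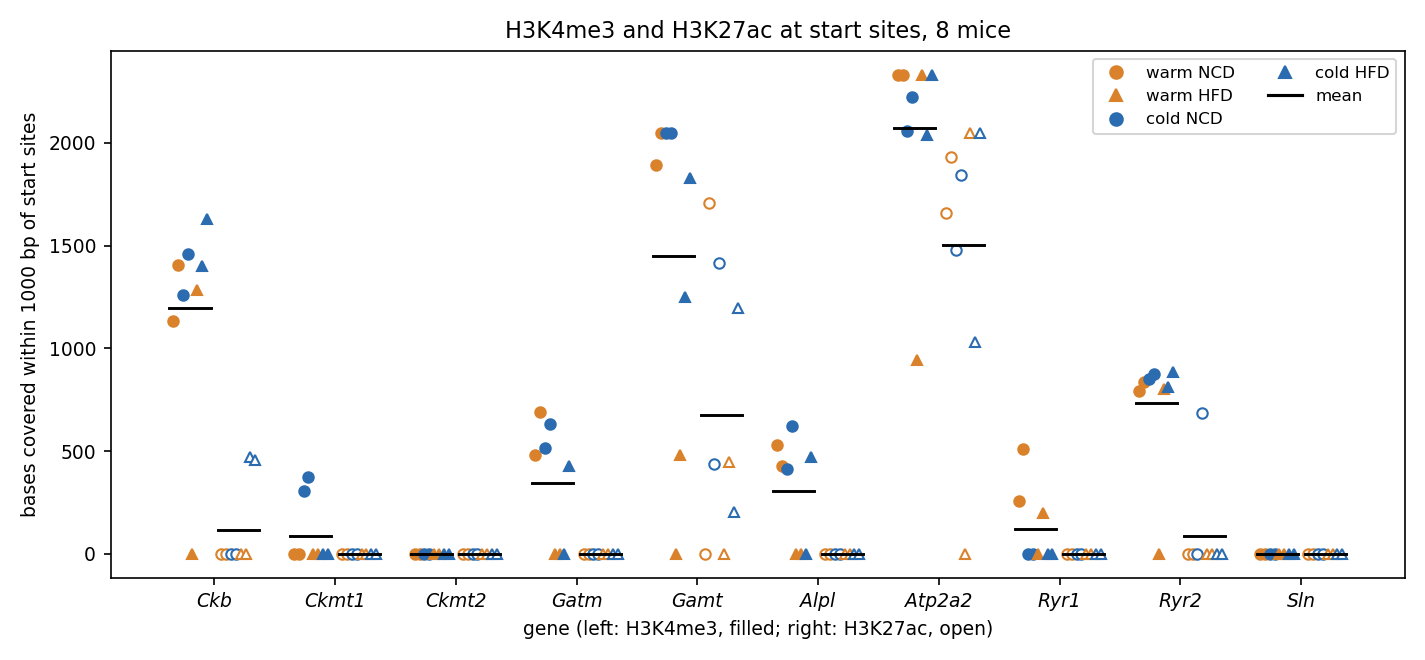
Bases covered within 1000 bp of start sites by H3K4me3 (filled, left of each gene) and H3K27ac (open, right), with 1 point per mouse, coloured by temperature and shaped by diet, and a line at the mean of 8 mice. H3K4me3 of Ckb and Ryr2 lies above their H3K27ac in 7 of 8 mice, and Gatm and Alpl have no H3K27ac point above 0.

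The pattern over all 32 lists, a peak or none at the start sites, was compared between genes. No other gene had the pattern of Ckb, Gamt or Ryr1. How many of all genes had a pattern of their own was not counted, so this is not a trait particular to these members. Their patterns also hold low peaks, such as Ckb H3K4me1 in mouse 5 (−log10 q 2.24) and Ryr1 H3K4me3 in mouse 2 (−log10 q 1.57). The pattern of Ckmt1 was shared by 19 other genes, that of Ryr2 by 37, that of Gatm by 53, that of Alpl by 99 and that of Atp2a2 by 1420. Ckmt2 and Sln shared the empty pattern with 7121 other genes.

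Other genes of both pathways were read in the same way. The creatine transporter Slc6a8 had H3K4me3 in 7 mice, all but mouse 7, and no H3K27ac at its start sites. The muscle creatine kinase Ckm had neither mark there. Of 20 other calcium cycling genes, 7 had H3K4me3 in all 8 mice, 12 in more than 4 and 6 in none, and 8 had H3K27ac in more than 4 mice and 9 in none. Atp2a3, a SERCA pump of non-muscle cells, had H3K4me3 at its start sites in 6 mice, whereas Atp2a1, the pump of fast muscle, the SERCA inhibitor Pln and the receptor Ryr3 had neither mark at theirs in any mouse. Jph2, which ties the plasma membrane to the reticulum, had H3K4me3 in the 4 NCD mice and in no HFD mouse (Fisher's exact p = 0.0286, adjusted p = 1).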

How the data were processed

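The members and gene lists were chosen with earlier results of these data known. According to the study's methods and the submitters' processing notes, the authors trimmed reads with cutadapt, aligned them to GRCm38 with Bowtie2 and called peaks with MACS2 against input; deepTools is also named, and their versions were not stated in the sources used here. The deposited lists, 1 per library, hold for each peak a fold enrichment (a ratio), a −log10 p, a −log10 q, a display score and a summit offset. The smallest −log10 q was 1.3. Signal tracks and read depths were not used, so the height of a mark was not compared between mice, and the number of peaks stands in for depth. The 8 input libraries were not analysed here.

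Genes and start sites came from GENCODE M21 basic, of the same build. A gene was marked when a peak overlapped 1000 bp on either side of any start site of a protein-coding transcript by at least 1 bp. Coordinates are 1-based. Exon and intron numbers refer to the transcript with the most exonic bases. Tests were computed in Python 3.11.15 with numpy 2.4.6, pandas 2.3.3 and scipy 1.17.1, with figures from matplotlib 3.10.9, and were tested on simulated data. Benjamini-Hochberg adjustment ran over all protein-coding genes with a peak in at least 1 mouse, and the threshold was 0.05. Exact tests of 4 against 4 mice used 70 assignments. All 10 members were named whatever their values. Other genes of the lists were given values only if their groups separated fully, or as relatives (Slc6a8, Ckm, Atp2a1, Atp2a3, Pln, Ryr3), and likeness named genes only where at most 3 shared a pattern.

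The mouse number in the labels was taken to identify the animal, so the marks of a mouse were treated as paired. Deviations of H3K4me3 and H3K27ac over 10668 genes correlated at 0.0197 to 0.341 within a mouse, above 0.1 in 6 of 8 mice. In 5 of 8 mice H3K4me3 correlated best with H3K27ac of the same mouse. In mice 1, 4 and 7 it correlated better with H3K27ac of another mouse, at 0.253, 0.128 and 0.15. Their own values were 0.0197, 0.0203 and 0.138, so this check gives the pairing of marks limited backing. The methods do not say clearly whether each experiment pooled 2 mice, and p-values measure only the spread between these samples.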

Additional observations from a re-analysis of the deposited data

Results flagged for a closer look

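In 56 groups of 4 mice (cold, warm, NCD or HFD) for H3K4me3 and H3K27ac, covered length over the members' windows was checked for a mouse that stood apart from the other 3. This was so in 5 groups, and chance flags about 1 in 20 groups. The other warm mice had 2871 to 3280 bases of Ckb H3K4me3 and mouse 7 had 539. Gatm H3K4me3 was 428 bases in mouse 11 and 0 in the other HFD mice. Atp2a2 H3K4me3 was 6297 bases in mouse 11, against 2059 to 2576 in the other cold mice. In the Ckmt1 window, which holds the start of Ppip5k1, H3K4me3 was 2242 bases in mouse 11, against 1653 to 1741 in the other cold mice, and H3K27ac was 1657 bases in mouse 1, against 2306 to 2403 in the other NCD mice. Mouse 7 had the shortest list of H3K4me3, with 13517 peaks, and mouse 11 the longest, with 24104. The part of list length in these values was not tested.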

How the results depend on the processing

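Presence and covered length gave 0 adjusted calls among the members by temperature, by diet and for the interaction under every alternative run, a range of 0 to 0 on leaving out each mouse. These counts say nothing about stability, since exact tests of 4 against 4 mice can give no p below 0.0286 before adjustment, and without mice 7 and 10 none below 0.1 by temperature or 0.0667 by diet. At an unadjusted p under 0.05, presence by temperature gave 0 members, and 1 without mouse 7 (Ryr1 H3K4me3), and presence by diet gave 0, and 2 without mouse 11 (Gatm and Alpl H3K4me3). In each case the mouse left out was the only 1 of its group that differed from the rest. Full separation then follows from leaving it out and is no support for a difference. H3K4me3 in all mice was found at 1 member, at 1 to 4 on leaving out each mouse (4 without mouse 7) and at 4 without mice 7 and 10. H3K27ac in all mice was found at 0, at 0 to 1 (1 without mouse 7) and at 1. Leaving out mice can only keep or raise such counts, at all genes as at the members. Pairs of member and mark with temperature groups that did not overlap numbered 1, and 1 to 4 on leaving out each mouse (4 without mouse 10), 0 with −log10 q of 5 or more, 2 with lists of equal length and 4 without mice 7 and 10. By diet they numbered 1, and 1 to 6 on leaving out each mouse (3 without mouse 1 and 6 without mouse 11), 0 with −log10 q of 5 or more, 0 with lists of equal length, 3 as a share of each list and 4 without mice 7 and 10. As a share of each list the temperature pair was Ckb H3K4me3 instead of Ryr2 H3K27ac, and with the gene body alone the diet pair was Gamt H3K4me3 instead of Gatm H3K4me3. The Ryr2 difference was 2763 to 3860 bases on leaving out each mouse, and the Gatm difference was −580 to −436. Groups that do not overlap in all mice cannot come to overlap when a mouse is left out. The numbers of such pairs on leaving out mice could therefore only stay or rise, and they are no support for a difference. The comparison of marks called 4 members, 4 with the replicate block, 2 with −log10 q of 5 or more and 2 to 6 on leaving out each mouse (2 without mouse 1, 2, 4, 5 or 11). The count of 2 without any of these mice follows from the loss of a mouse with H3K4me3 at Gatm and Alpl. Over all genes it called 10791, and 9618 to 11213 on leaving out each mouse. The cause of the other changes was not tested. The lists give no read depth, so an absent peak can be a shallow library, most of all in mouse 7 and for H3K4me1 and H3K27me3.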
